A study of Rattus norvegicus with 10 samples.

Results

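The genes that make fatty acids were followed in the livers of 10 male Sprague Dawley rats, 7 of them poisoned with sulfur mustard (SM), an alkylating blister agent. The members were the probes whose transcript accession belongs to Acly, Me1, Acaca, Fasn, Elovl6, Scd, Thrsp, Srebf1 or Pnpla3. This rule goes by symbol and uses no measured value, but the genes were listed with earlier results of these data known. Of these 9 genes, 7 were matched to 10 probes, among 41012 probes and 13837 named genes on the array, and Srebf1 and Pnpla3 were not matched to any. All 10 member probes were well above background on all 10 arrays, and all were among the 22991 probes tested. Each array held the liver RNA of 1 rat, hybridized in 1 colour to a whole-genome oligonucleotide array 24 h after the injection. The control group (n = 3) received the solvent, propylene glycol. The SM group (n = 4) received 3.5 mg/kg SM under the skin, which is 0.7 of the median lethal dose (LD50). The SM + MSTF group (n = 3) received the same SM and, 1 h later, 120 mg/kg MSTF by stomach tube, a mixture of salvianolic acids of Salvia miltiorrhiza and total flavonoids of Anemarrhena asphodeloides. The food intake of the rats and the time of day of dissection were not given in the sources used here.

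The liver turns surplus carbohydrate into fatty acids in a short chain of reactions. Citrate leaves the mitochondrion and is cut to acetyl-CoA by ATP citrate lyase (Acly), acetyl-CoA carboxylase (Acaca) makes malonyl-CoA from it, and fatty acid synthase (Fasn) joins these units to palmitate with NADPH, some of it from malic enzyme (Me1). Palmitate is then lengthened by Elovl6 and made monounsaturated by stearoyl-CoA desaturase (Scd). In normal liver the genes are known to be raised together by insulin and carbohydrate feeding, largely through the transcription factors SREBP-1c (made from Srebf1) and ChREBP (Mlxipl), and to be lowered by fasting.

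The stretch of 250 bases before the start site is shown for the 4 measured members that have a promoter entry, since these genes moved together in the rat described below. Sequences and coordinates are from RefSeq, build GRCr8, written 5′ to 3′ on the strand of the gene, and all 4 genes lie on the minus strand. Capitals mark exact matches, on either strand, to any of 5 motifs, which did not overlap each other. The motifs were the CCAAT box (CCAAT), a sterol response element (TCACNCCAC), the E-box CACGTG, the GC box (GGGCGG) and the TATA box (TATAAA).
Acly, chr10:85963632-85963881: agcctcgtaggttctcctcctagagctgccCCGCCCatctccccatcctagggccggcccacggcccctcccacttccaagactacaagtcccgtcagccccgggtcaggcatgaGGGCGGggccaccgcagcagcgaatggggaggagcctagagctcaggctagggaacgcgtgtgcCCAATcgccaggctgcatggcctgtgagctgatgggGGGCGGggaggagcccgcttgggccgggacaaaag
Me1, chr8:96540245-96540494: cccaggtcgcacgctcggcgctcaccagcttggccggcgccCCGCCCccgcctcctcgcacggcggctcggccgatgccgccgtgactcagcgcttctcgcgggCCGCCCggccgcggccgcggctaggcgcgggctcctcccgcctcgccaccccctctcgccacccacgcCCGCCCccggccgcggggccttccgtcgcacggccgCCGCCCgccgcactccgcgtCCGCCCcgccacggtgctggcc
Scd, chr1:253231732-253231981: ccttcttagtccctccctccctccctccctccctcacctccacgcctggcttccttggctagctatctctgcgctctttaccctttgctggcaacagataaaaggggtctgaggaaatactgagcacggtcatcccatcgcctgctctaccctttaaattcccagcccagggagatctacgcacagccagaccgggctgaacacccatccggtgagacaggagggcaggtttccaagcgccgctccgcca
Thrsp, chr1:161138965-161139214: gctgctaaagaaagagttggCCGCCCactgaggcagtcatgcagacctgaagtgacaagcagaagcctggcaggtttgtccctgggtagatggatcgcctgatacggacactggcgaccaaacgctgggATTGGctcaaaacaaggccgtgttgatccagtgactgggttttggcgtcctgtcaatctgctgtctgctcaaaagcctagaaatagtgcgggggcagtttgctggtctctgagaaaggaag
The Acly window held 1 CCAAT box and 3 GC boxes, the Thrsp window 1 of each, and the Me1 window 5 GC boxes. The Scd window held no match to these letters. Of the 33469 promoters of this length, 34.0% held a CCAAT box, 30.5% a GC box, 12.9% a TATA box, 5.59% the E-box and 0.974% the sterol element. None of the 4 windows held the last 3. At these shares their absence from 4 windows says little, and sequence outside the 250 bases was not searched. A match is a string of letters and not a measured binding site. Fasn, Acaca and Elovl6 had no promoter entry.

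Over all tested probes, the array of SM + MSTF replicate 3 stood somewhat apart from the others. Its mean correlation with the other arrays over the tested probes was 0.978, the lowest of the 10, against 0.981 to 0.986 for the rest. It lay at least 1.5-fold below all other arrays for 338 probes and at least 1.5-fold above all others for 342, whereas the corresponding counts of the other 9 arrays were 21 to 164 and 28 to 138. Its share of probes well above background was 57.9%, within the range of the other arrays (51.9% to 61.4%). Each comparison is given with and without this rat, a choice made after its values were seen. SM + MSTF replicate 3 was hybridized on the same slide as the 3 controls, all 4 SM rats were on a second slide, and SM + MSTF replicates 1 and 2 on the third. The effect of SM and that of the second slide cannot be told apart. Without SM + MSTF replicate 3 each group lay on a slide of its own, so group and slide cannot be told apart in any comparison.

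The lipogenic probes were among those that fell farthest below the other arrays in that rat, with 9 of the 10 among the 49 largest drops. SM + MSTF replicate 3 had the lowest value of the 10 arrays for all 10 member probes, where 18.5% of all tested probes had their lowest value on this array. It was at least 1.5-fold below the lowest of the other 9 for 9 of the 10, against 1.47% of all tested probes. No other array was 1.5-fold below, or 1.5-fold above, all the others for any member probe. These counts describe 1 rat, and no test was made of them. In whole liver, fewer cells of a type and less RNA per cell cannot be told apart.

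**Figure D1:**
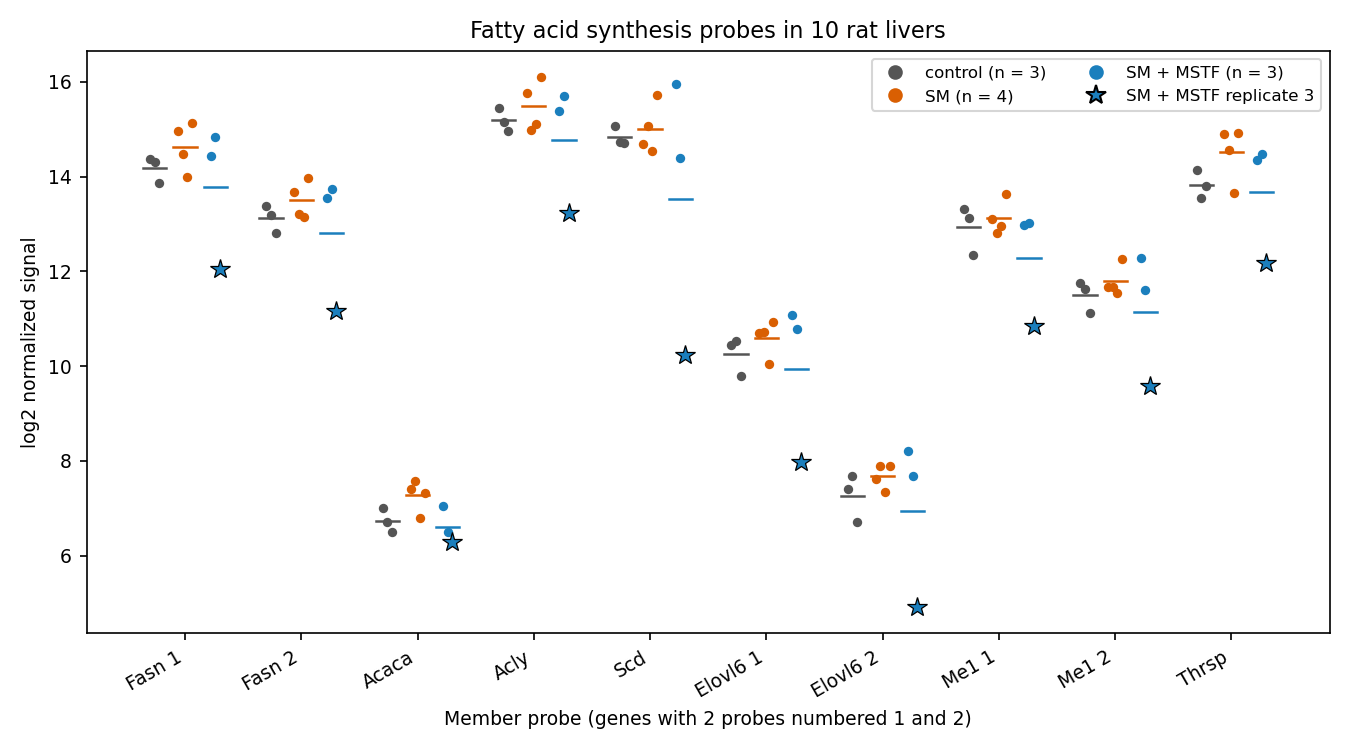
Log2 normalized signal of the 10 member probes (vertical axis) in the control (grey, n = 3), SM (orange, n = 4) and SM + MSTF (blue, n = 3) livers, with 1 point per rat and a bar at each group mean. The star is SM + MSTF replicate 3, which lies under every other point for all 10 probes and is 17.8-fold below the next lowest for Scd but 1.15-fold for Acaca.

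Acly, which supplies cytosolic acetyl-CoA, had log2 signals of 15.45, 15.15 and 14.96 in the controls, 15.77, 14.98, 15.12 and 16.10 in the SM rats, and 15.38, 15.70 and 13.23 in the SM + MSTF rats. All groups overlapped, and the last of these values was 3.31-fold below the lowest of the other 9. Me1, which supplies NADPH, was read by 2 probes. The brighter had 13.32, 13.12 and 12.35 in the controls, 13.11, 12.81, 12.95 and 13.64 in the SM rats, and 12.97, 13.03 and 10.85 in the SM + MSTF rats. The drop in SM + MSTF replicate 3 was 2.83-fold in this probe and 2.94-fold in the other, so both probes gave a drop of like size.

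Fasn, the enzyme that builds palmitate, was also read by 2 probes. The brighter had log2 signals of 14.37, 14.31 and 13.86 in the controls, 14.95, 14.47, 13.99 and 15.13 in the SM rats, and 14.44, 14.85 and 12.05 in the SM + MSTF rats. SM + MSTF replicates 1 and 2 were above all 3 controls in both probes. That sets 2 rats against 3, and the share of all tested probes that separated so is not given here. SM + MSTF replicate 3 was 3.49-fold below the lowest of the other 9 arrays (3.13-fold in the second probe). Acaca, the step that commits acetyl-CoA to fatty acid synthesis, had 6.99, 6.72 and 6.49 in the controls, 7.41, 7.57, 6.79 and 7.32 in the SM rats, and 7.04, 6.49 and 6.29 in the SM + MSTF rats. It was the member in which SM + MSTF replicate 3 differed least, at 1.15-fold below the next lowest rat, a drop that ranked 1585 of the 22991 probes.

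Elovl6, which lengthens palmitate to stearate, had log2 signals in its brighter probe of 10.44, 10.54 and 9.79 in the controls, 10.71, 10.71, 10.04 and 10.93 in the SM rats, and 11.08, 10.77 and 7.97 in the SM + MSTF rats. Replicates 1 and 2 of SM + MSTF were above all controls in this probe but not in the dimmer one. Replicate 3 was 3.55-fold below the lowest of the other 9 (3.43-fold in the dimmer probe). Scd, which introduces the double bond of oleate, had 15.07, 14.72 and 14.71 in the controls, 14.68, 15.07, 14.54 and 15.72 in the SM rats, and 15.95, 14.39 and 10.23 in the SM + MSTF rats. The SM + MSTF group thus held both the highest and the lowest Scd signal of the study. SM + MSTF replicate 3 was 17.8-fold below the lowest of the other 9 rats, the largest drop of all 22991 probes on that array, and 30.7-fold below the mean of SM + MSTF replicates 1 and 2. The other 9 rats spanned 1.56 log2 units for Scd. They spanned 1.28 log2 units for the brighter Fasn probe.

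Thrsp, a small nuclear and cytosolic protein linked to lipogenesis and responsive to thyroid hormone and carbohydrate, had log2 signals of 14.13, 13.56 and 13.81 in the controls, 14.90, 14.57, 13.66 and 14.93 in the SM rats, and 14.36, 14.47 and 12.17 in the SM + MSTF rats. In 3 of the 4 SM rats, and in SM + MSTF replicates 1 and 2, it was above all controls. SM + MSTF replicate 3 was 2.62-fold below the lowest of the other 9. Averaged over 1 probe for each of the 7 genes, each probe centred on its own mean, the members lay at 0.25, 0.01 and -0.29 in the controls, at 0.50, 0.31, -0.13 and 0.82 in the SM rats, and at 0.46, 0.24 and -2.17 in the SM + MSTF rats, in log2 units. The 9 rats other than SM + MSTF replicate 3 therefore formed 1 continuous range, with SM replicate 4 at its top and control replicate 3 at its bottom.

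**Figure D2:**
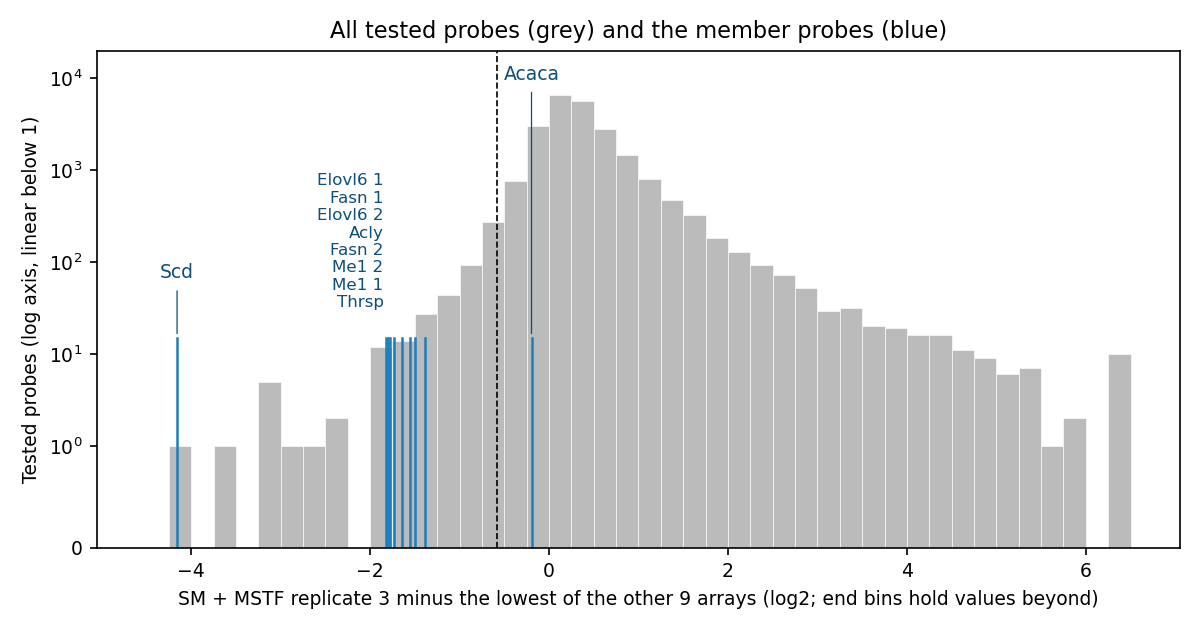
Distribution over the 22991 tested probes of the signal in SM + MSTF replicate 3 minus the lowest of the other 9 arrays (horizontal axis, log2; vertical axis, number of probes, logarithmic above 1), with the member probes as blue lines, their names listed in order of size, and a dashed line at 1.5-fold below. Scd is at the far left, 8 member probes lie together between 2.62-fold and 3.55-fold below, and Acaca lies right of the dashed line.

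The same drop was found however the signals were scaled. With scaling to the 75th percentile, with the log2 values deposited by the authors, and with another background correction (normexp), the same 9 member probes were at least 1.5-fold below the other 9 arrays, and Scd was 17.0-fold, 18.0-fold and 18.0-fold below. The dimmer Elovl6 probe moved most, to 1.76-fold below after normexp. Since the 3 controls shared a slide with SM + MSTF replicate 3, the drop could also be read within 1 slide. There, this rat was 4.60 log2 units below the control mean for Scd, 2.12 for the brighter Fasn probe, 1.95 for Acly and 0.44 for Acaca.

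The first comparison, SM versus control, asks what SM alone did to these genes at 24 h. All 10 member probes had a higher mean in the SM group, as did 12853 of the 22991 tested probes. The 10 probes read 7 genes, so their directions do not count as 10 separate observations. The test was passed by 0 of 10 (limma over all tested probes, Benjamini-Hochberg adjusted p under 0.05 and at least 1.5-fold), where 2.41% of all tested probes passed. At an unadjusted p under 0.05 it was 1 of 10, Acaca, against 16.4% of all tested probes. The log2 fold change of Acaca was 0.54 (SE 0.23, limma adjusted p = 0.277, 3 controls and 4 SM rats). That of Thrsp was 0.68 (SE 0.53, limma adjusted p = 0.582). The remaining 8 probes had log2 fold changes from 0.17 for Scd to 0.46 for the brighter Fasn probe. The median over the 7 genes was 0.34, as compared to 0.03 over all tested probes. The groups overlapped for every probe.

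The spread of SM + MSTF replicate 3 enters this comparison too, since 1 variance was fitted to all 3 groups. Without that rat the fold changes of SM versus control were the same by construction and their errors were smaller, with SE 0.30 in place of 0.53 for Thrsp and 0.39 in place of 1.06 for Scd. Still 0 of 10 passed, against 3.11% of all tested probes, and 2 of 10 (Acaca and Thrsp) were at an unadjusted p under 0.05, against 18.5%, with limma adjusted p = 0.231 for Acaca and 0.266 for Thrsp. The 95% interval of the log2 fold change was 0.04 to 1.03 for Acaca, 0.01 to 1.36 for Thrsp, -0.17 to 1.08 for the brighter Fasn probe and -0.71 to 1.05 for Scd. These intervals for Fasn and Scd hold both 0 and a change of 1 log2 unit.

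The second comparison, SM + MSTF versus control, asks how the treated rats differed from unexposed ones. All 10 member probes had a lower mean in the SM + MSTF group, as did 11283 of the 22991 tested probes. Of the 10, 0 passed the test, where 0% of all tested probes passed. The count at an unadjusted p under 0.05 was 0 of 10, against 9.54% of all tested probes. The log2 fold changes ran from -1.31 (SE 1.13, limma adjusted p = 0.738) for Scd to -0.13 (SE 0.24, limma adjusted p = 0.893) for Acaca. These directions rested on SM + MSTF replicate 3. Without it all 10 turned positive, where 12204 of the 22991 tested probes were positive. The values were 0.67 (SE 0.29) and 0.68 (SE 0.30) for the 2 Elovl6 probes, 0.47 (SE 0.33) and 0.52 (SE 0.26) for the Fasn probes, 0.58 (SE 0.35) for Thrsp, 0.33 (SE 0.46) for Scd and 0.03 (SE 0.26) for Acaca. Again 0 of 10 passed, against 1.08% of all tested probes, and 0 of 10 were at an unadjusted p under 0.05, against 12%. The lowest limma adjusted p was 0.417, for Elovl6, from 2 treated rats and 3 controls. Those 2 rats were on another slide than the controls, so treatment and slide cannot be told apart in these values. With the slide as a fixed block, the comparison was in effect that of SM + MSTF replicate 3 with the 3 controls on its slide. Then 6 of 10 member probes passed, against 1.27% of all tested probes. They were Scd (-4.60, limma adjusted p = 0.0138), both Elovl6 probes (-2.29 and -2.33, limma adjusted p = 0.0306 and 0.0300), 1 Fasn probe (-1.96, limma adjusted p = 0.0337) and both Me1 probes (-2.08 and -1.94, limma adjusted p = 0.0463 and 0.0442). Those values set 1 rat, singled out after its values were seen, against 3, and their error comes from the spread within the other groups, with the lone rat assumed to vary like them.

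The third comparison, SM + MSTF versus SM, asks what MSTF changed in poisoned rats. All 10 member probes had a lower mean in the SM + MSTF group, as did 12328 of the 22991 tested probes. Of the 10, 0 passed, where 1.26% of all tested probes passed. At an unadjusted p under 0.05 it was 1 of 10, against 15.9%, and this was Acaca with a log2 fold change of -0.66 (SE 0.23, limma adjusted p = 0.216). Scd had -1.48 (SE 1.06, limma adjusted p = 0.501). Without SM + MSTF replicate 3, Acaca had -0.51 (SE 0.25, limma adjusted p = 0.415) and the other 9 probes lay between -0.13 and 0.33. Scd then had 0.16 (95% interval -0.83 to 1.16) and the brighter Fasn probe 0.01 (95% interval -0.70 to 0.72). Here too 0 of 10 passed, against 1.25% of all tested probes, and 0 of 10 were at an unadjusted p under 0.05, against 13.6%. No SM + MSTF rat shared the slide of the SM rats, so MSTF and slide cannot be told apart in this comparison, with or without replicate 3. The 3 comparisons share their groups, so their values are not independent of one another.

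**Figure D3:**
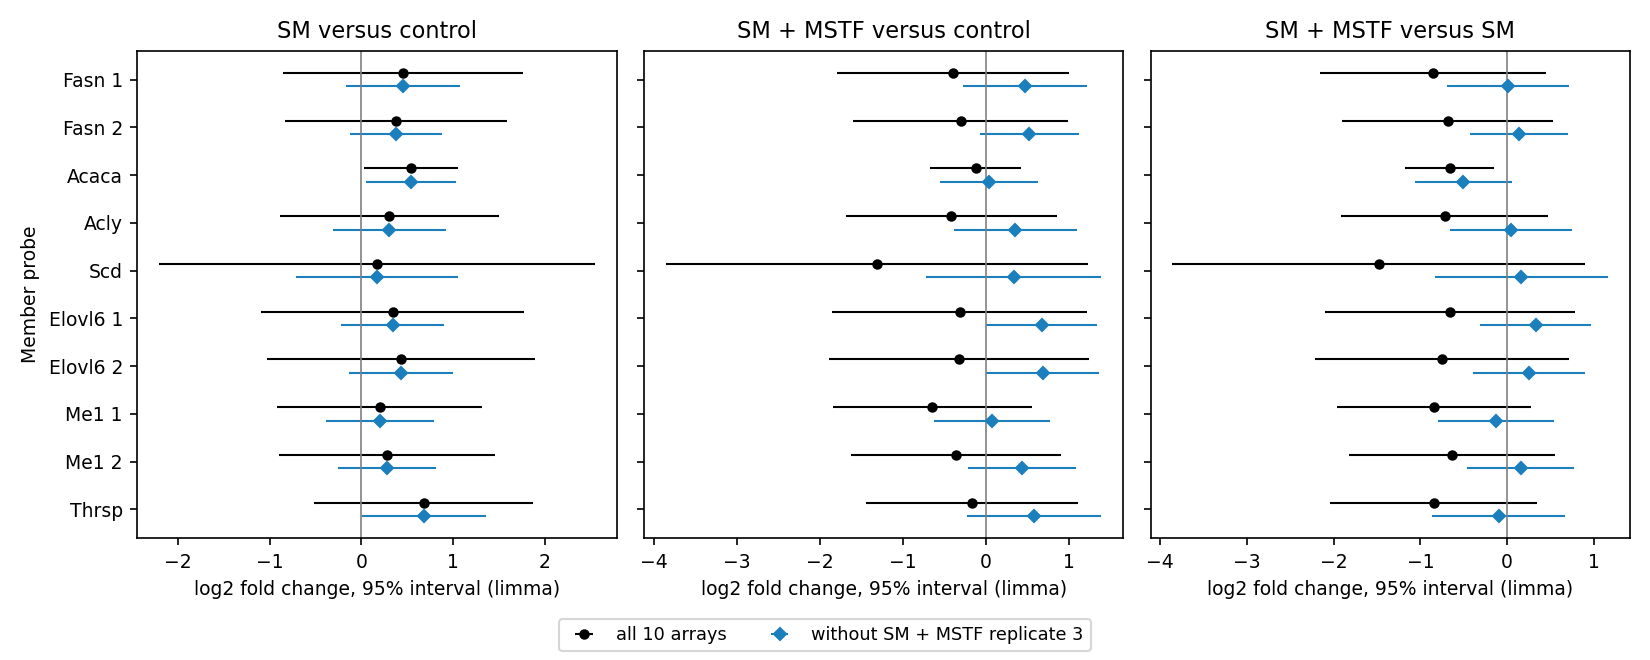
Log2 fold change of the 10 member probes (rows) in the 3 comparisons (panels), with 95% intervals from limma, in all 10 arrays (black circles) and without SM + MSTF replicate 3 (blue diamonds). SM versus control keeps its values and narrows, while SM + MSTF versus control moves from negative to positive for every probe, from -1.31 to 0.33 for Scd.

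The members were then followed from rat to rat, with each value taken relative to its group mean. Over the 10 rats, Acly tracked Fasn with Pearson's r = 0.97 and Spearman's rho = 0.95 (exact within-group permutation, two-sided, adjusted p = 0.0174 and 0.0139 over 6 relations). Adjusted permutation p for Pearson's r was 0.0174 for Me1 (r = 0.94), 0.0208 for Elovl6 (r = 0.96) and 0.0208 for Thrsp (r = 0.96), and these 4 were past the threshold. Spearman's rho was 0.93 for Me1, 0.90 for Elovl6 and 0.96 for Thrsp, with adjusted permutation p of 0.0139, 0.0260 and 0.0139. Scd had r = 0.88 and rho = 0.85 (exact adjusted p = 0.138 and 0.0556) and Acaca r = 0.57 and rho = 0.56 (exact adjusted p = 0.226 and 0.213). Whether the relations passed depended on single rats. Fewer rats also allow fewer permutations, 288 without SM + MSTF replicate 3 in place of 864. Without SM + MSTF replicate 3, 0 of the 6 passed by either coefficient, with Pearson's r = 0.88 for Acly, 0.82 for Thrsp, 0.76 for Elovl6 and 0.73 for Me1 (exact adjusted p = 0.0625 for each), and 0.44 for Acaca and 0.20 for Scd. Without the 2 rats farthest from the median of Fasn, which were SM + MSTF replicates 2 and 3, r was 0.87 for Acly, 0.89 for Elovl6, 0.84 for Thrsp and 0.75 for Me1 (exact adjusted p = 0.0833 for each), 0.68 for Acaca and 0.65 for Scd. These 2 were farthest in values relative to the group mean, which replicate 3 lowers. The Fasn signal of replicate 2 itself, 14.85, was within the range of the other rats. Leaving both out leaves 1 SM + MSTF rat, which lies at its own group mean by construction. By Spearman's rho, 0 of the 6 passed without SM + MSTF replicate 1 or 2 (lowest exact adjusted p = 0.0625 each) or without SM replicate 4 (0.0556). By Pearson's r, 4 passed without SM + MSTF replicate 1 or 2, and 3 without SM replicate 4. All 6 values of r were positive in the settings named here.

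**Figure D4:**
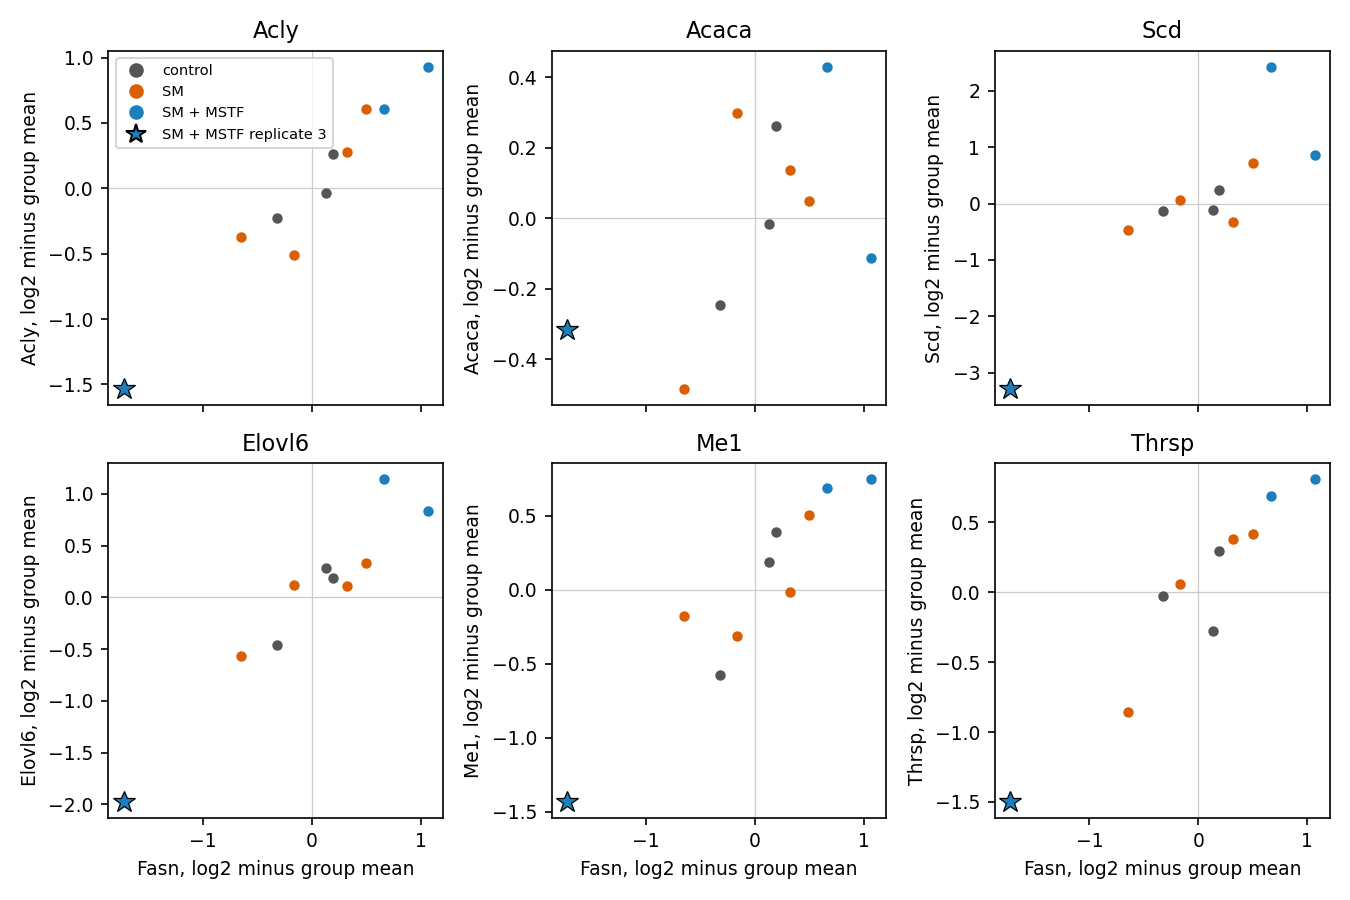
Each panel sets 1 member (vertical axis) against Fasn (horizontal axis), both as log2 signal minus the group mean, with 1 point per rat in grey (control), orange (SM) or blue (SM + MSTF) and a star for SM + MSTF replicate 3. The star is the leftmost point in every panel. The group means include it, and over the other 9 points as plotted r is 0.94 for Acly and 0.67 for Scd, against 0.88 and 0.20 once the means are taken without that rat.

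The neighbouring genes of the pathway were read from 3 lists, with 1 probe for each gene. None of their genes passed the test in any of the 3 comparisons, in either direction. The first list held genes for acetyl-CoA and NADPH supply, elongation, desaturation and activation, 23 of 25 tested, with 14 higher and 9 lower in SM than in control and a median log2 fold change of 0.06. The second held regulators of lipogenic transcription, 17 of 19 tested, with 10 higher and 7 lower and a median of 0.08. The third held genes of triglyceride synthesis and lipid droplets, 17 of 20 tested, with 11 higher and 6 lower and a median of 0.13. The lowest p-values of SM versus control belonged to Acsl4 and Hacd3 in the first list, Nr1h2 and Insig1 in the second, and Plin5 and Cidea in the third. Of these, Insig1, which holds the SREBP precursor in the endoplasmic reticulum, had 0.74 (SE 0.28, limma adjusted p = 0.227), and Plin5, a coat protein of lipid droplets, had 1.13 (SE 0.48, limma adjusted p = 0.285). The Plin5 probe was dim and well above background on only 8 arrays. Its log2 signal was 7.60 in SM replicate 1, 5.38 to 6.02 in the other SM rats and 4.81 to 5.56 in the controls. Nr1h2, the oxysterol receptor LXR beta, had 0.23 (SE 0.08, limma adjusted p = 0.197).

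SM + MSTF replicate 3 was not low across these lists to the same extent as across the members. Over all tested probes, this array was the lowest for 18.5% and at least 1.5-fold below all others for 1.47%. In the supply, elongation and desaturation list it was the lowest array for 16 of 23 genes and at least 1.5-fold below all others for 7. Among these were Scd2 (11.6-fold), Acacb, the mitochondrial acetyl-CoA carboxylase (at least 2.03-fold), Elovl5 (2.00-fold), Acsl5 (1.97-fold), the desaturase Fads2 (1.75-fold) and the transketolase gene Tkt (1.73-fold). The value of Acacb is a bound, since its probe was not well above background in this rat and the dimmest signal that was so on this array was used in its place. Scd2 was read by 3 probes that differed in this rat, at 11.6-fold and 1.56-fold below all others and, for the dimmest probe, within their range. Scd and Scd2 are close paralogs, and how far a probe of 1 reads the other was not tested. In the triglyceride and droplet list it was the lowest for 5 of 17 genes and 1.5-fold below for 3, namely Mgll, which splits monoglycerides (1.91-fold), Gpam, the first acyltransferase of glycerolipid synthesis (1.78-fold), and the droplet protein Cidec (1.64-fold).

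Among the regulators, SM + MSTF replicate 3 was the lowest array for 4 of 17 genes, against 18.5% of all tested probes. It was 1.5-fold below all others for 1, Mlxipl (1.52-fold), which encodes ChREBP. It was above all others for Irs2, an adaptor that carries the signal of the insulin receptor in liver, by 1.67 log2 units in the brightest of 4 probes. The other 3 Irs2 probes were within the range of the other arrays, and 2 of these were too dim to be tested. Insig1 and Insig2 were within the range of the other arrays as well. The median member thus stood lower in this rat than the median gene of any of the lists. The median of the value in this rat minus the lowest of the others was -1.73 log2 units over the 7 members. It was -0.36 over the supply list, 0.40 over the regulators and 0.20 over the triglyceride list. The member Acaca, at -0.20, was above the median of the supply list.

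**Figure D5:**
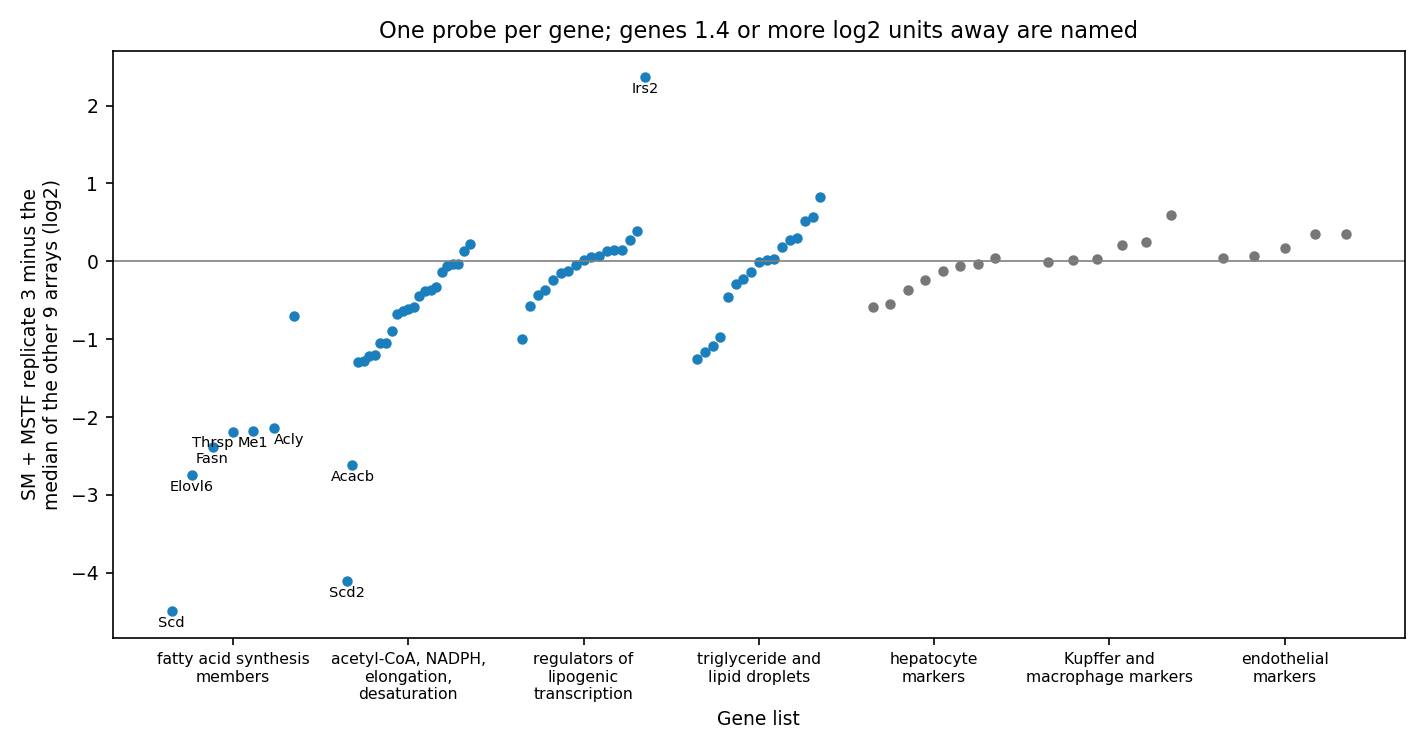
Signal of SM + MSTF replicate 3 minus the median of the other 9 arrays (vertical axis, log2), with 1 point per gene, for the members, the 3 pathway lists (blue) and 3 cell type marker lists (grey) along the horizontal axis, and points sorted within each list. The members other than Acaca and the genes Scd2 and Acacb (the latter not well above background in this rat) lie lowest, Irs2 lies highest, and the marker genes lie closer to 0.

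Cell type markers did not show the pattern of the members in this rat. The tissue was liver by its markers, with 8 of 8 hepatocyte genes well above background on all arrays. None of the tested markers of hepatocytes, Kupffer cells and macrophages, endothelial cells, adipocytes, lymphocytes or neutrophils was 1.5-fold below or above the other 9 arrays in SM + MSTF replicate 3. There 2 of the 8 hepatocyte genes were lowest, against 18.5% of all tested probes. The neutrophil receptor gene Cxcr2, which was too dim to be tested, was well above background on 1 array, and its log2 signal was 4.95 in SM + MSTF replicate 3, where the other 9 arrays were at 1.94 to 2.05. The summed signal of the hepatocyte list was 20.06 on the log2 scale in this rat, within the 20.04 to 20.20 of its group, as compared to 20.15 to 20.16 in the controls and 20.06 to 20.10 in the SM rats. The Kupffer cell and macrophage sum was 16.08 in this rat, with 15.64 to 16.18 in the controls and 15.07 to 15.92 in the SM rats. The endothelial sum was 14.43, with 14.35 to 14.36 in the controls and 14.30 to 14.43 in the SM rats. For adipocytes, which carry out the same synthesis, 2 of the 5 markers with a probe were well above background on all arrays and 2 on none. The adipocyte sum was 11.45 in this rat, the lowest of all arrays, with 11.55 to 12.03 in the controls and 11.59 to 11.98 in the SM rats. In its own group the highest was 11.76. The lymphocyte sum was 9.89, the highest of all arrays, with 9.47 to 9.54 in the controls and 8.62 to 9.63 in the SM rats. The neutrophil sum was 9.51, with 7.99 to 8.98 in the controls and 8.14 to 10.60 in the SM rats. In each of these lists 2 genes were well above background on all arrays.

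The genes outside the members with the most similar profile were ranked by the mean absolute difference of their centred log2 values from the mean member profile over the 10 arrays, among the 671 probes that varied at least as much. Acacb was the nearest at 0.23 log2 units. It was followed by Irs3, an insulin receptor substrate found in rodents, at 0.31, Mpzl2, a cell adhesion protein, at 0.42, Otub2, a deubiquitinating enzyme, at 0.43, and Ccnf, an F-box protein of the cell cycle, at 0.49. All 5 had their lowest signal in SM + MSTF replicate 3, and this rat weighs heavily in the measure. There Irs3 was 3.18-fold and Mpzl2 3.72-fold below the other 9 rats. Acacb, Otub2 and Ccnf were not well above background in this rat, so their distances and places in the order rest on a signal that is only a bound, and they were at least 2.03-fold, 1.16-fold and 1.30-fold below.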

How the data were processed

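Male rat liver RNA from 10 rats was labelled with Cy3 and hybridized to Agilent 4 × 44K whole rat genome arrays. The deposited scanner files hold the intensity of each spot from Agilent Feature Extraction 10.7, background-subtracted by that software and not normalized between arrays. The series table holds the authors' deposited log2 values after quantile normalization. Here the processed intensity was quantile normalized without the spots marked as not uniform, log2-transformed and reduced to 1 mean value per probe. A probe was tested if all arrays of any 1 group had it well above background (22991 of 41012), with limma 3.58.1 in R 4.3.3, 1 fit of all 10 arrays by group, and Benjamini-Hochberg adjustment over all tested probes. A probe was called at an adjusted p under 0.05 and at least 1.5-fold. Precision is limited by the number of rats, and the standard error of a typical probe (the median) was 0.15 to 0.16 log2 units.

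Probes were named by their accession through RefSeq (GRCr8), which matched 17512. Correlations between members used group-centred values, 1 probe per gene, and exact permutation of rats within groups. The code was tested on simulated data. Alternatives covered the scaling, background correction, the filter on dim probes, the fold minimum, the samples fitted, the slide, a replicate block, the methods' t-test, and each array left out. Same-numbered rats did not deviate together (r from -0.10 to 0.17), so the numbers were not taken as pairs.

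The members and lists were chosen with earlier results of these data known. Named are all members; of each pathway list the genes called or, with fewer than 2, the 2 of lowest p in SM versus control; and the 5 genes of nearest profile. The genes at least 1.5-fold outside the other arrays in SM + MSTF replicate 3, and the comparisons without that array, were chosen after its values were seen. The values of 1 gene of the lists are not reported here.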

Additional observations from a re-analysis of the deposited data

How the results depend on the processing

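The count of member probes called was 0 in all 3 comparisons under each alternative run except 1: with the slide as a fixed block it was 6 in SM + MSTF versus control. That includes the methods' t-test without and with Benjamini-Hochberg adjustment, and each array left out, where the counts ranged from 0 to 0. With the replicate block 0 member probes were called in each comparison, and the log2 fold change of Scd in SM versus control was -0.069 in place of 0.17, since SM replicate 4, the highest for Scd in its group, has no partner. With the slide as a random block it was -0.18. Over all tested probes the count called moved more, from 553 in SM versus control to between 53 (replicate block) and 1131 (the methods' t-test without adjustment), from 0 in SM + MSTF versus control to 291 (slide as a fixed block), and from 290 in SM + MSTF versus SM to between 13 and 863 (the methods' t-test with and without adjustment). The causes of the other changes were not tested. The number of members that varied with Fasn, by Pearson's r, was 4, ranged from 0 (without SM + MSTF replicate 3) to 4 as single arrays were left out, was 2 without SM replicate 2 and without SM replicate 3, and was 0 without the 2 arrays farthest from the median of Fasn.

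Over the arrays left out in turn, the log2 fold change of SM versus control ranged from -0.069 to 0.32 for Scd (lowest without SM replicate 4) and from -0.090 to 0.40 for the brighter Me1 probe (lowest without control replicate 3). In SM + MSTF versus control the ranges were -0.93 to 0.47 and -0.77 to 0.52 for the Fasn probes, -0.34 to 0.033 for Acaca, -0.88 to 0.35 for Acly, -2.53 to 0.33 for Scd, -0.89 to 0.67 and -0.96 to 0.68 for the Elovl6 probes, -1.02 to 0.072 and -0.92 to 0.43 for the Me1 probes, and -0.57 to 0.58 for Thrsp. In SM + MSTF versus SM they were -1.39 to 0.0097 and -1.15 to 0.14 for the Fasn probes, -1.19 to 0.047 for Acly, -2.70 to 0.16 for Scd, -1.23 to 0.33 and -1.39 to 0.25 for the Elovl6 probes, and -1.20 to 0.15 for the dimmer Me1 probe. Each upper end in the comparisons with SM + MSTF is the value without SM + MSTF replicate 3. Acaca in SM + MSTF versus control also turned positive without control replicate 1. All member probes were well above background on all arrays. The dimmer of them moved most with the background correction: after normexp, Acaca in SM versus control was 0.31 in place of 0.54, and the dimmer Elovl6 probe in SM + MSTF versus control -0.040 in place of -0.33.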
